A study of Mus musculus with 12 samples.

Results

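The 62 genes described here encode the cytosolic translation initiation factors (eIF) and elongation factors (eEF) of the mouse, together with the kinases, methyltransferases and binding proteins that carry their symbols. They were taken by name from a table of 24589 genes: a symbol that begins with Eif and a digit from 1 to 6, or with Eef and 1 or 2, without Eif2ak2 and without pseudogene symbols. Of 64 such symbols, 62 reached 1 TPM (a share of the library's transcripts, corrected for transcript length) in at least 2 of the 12 libraries. The other two were Eef1a2, listed at 0 to 0.11 TPM, and Eif4e1b, listed at 0 in every library. The naming rule and the filter use no difference between groups.

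Translation starts when eIF2 carries the initiator tRNA to the small ribosomal subunit, where eIF1, eIF1A, eIF3 and eIF5 hold it ready to scan. eIF2B recharges eIF2 with GTP, and kinases that phosphorylate eIF2 slow this step under stress. The cap-binding complex eIF4F (eIF4E, eIF4A and eIF4G) recruits the mRNA, and 4E-binding proteins block eIF4E. eEF1A then brings each aminoacyl-tRNA, the eEF1B subunits recharge eEF1A, eEF2 moves the ribosome along, and eIF5A eases difficult peptide bonds. Several of these mRNAs belong to the terminal oligopyrimidine (TOP) class, which begins with a pyrimidine run and whose translation follows mTOR activity.

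RNA came from the NRAS/AE9a leukemic cell line, a mouse model of AML (acute myeloid leukemia) named for NRAS and for AE9a, a truncated form of the AML1-ETO fusion. All groups were grown with SCF, IL-3 and IL-6 under G418 and puromycin selection. Cells were wild type (WT) or Tet2-null (KO), and were sampled after 0, 4 or 8 h in actinomycin D, an inhibitor of transcription, at 5 µg/ml. Each of the 6 groups had 2 libraries. The labels name no cultures without the drug at 4 or 8 h and no further line of either genotype, so genotype cannot be told apart from whatever else separates these lines. Nor do they say that the libraries of a group are separate cultures. The p-values therefore reflect the spread among libraries alone, and that spread may be technical.

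At 0 h, Tet2 mRNA had 13.05 and 16.03 TPM in WT and 10.19 and 10.16 TPM in KO. It was thus lower in KO (log2 change -0.47 ± 0.13 SE, adjusted p = 0.0167 in limma) but still present, and values per gene cannot tell which exons a deletion took out. All 8 myeloid markers were detected, and their sum at 0 h was 2923 to 3291 TPM in WT and 2949 to 2958 TPM in KO. Single markers differed: Mpo had 28.5 and 33.5 TPM in WT against 146 and 137 in KO, Elane 88.99 and 96.25 against 29.1 and 27.6, and Cd34 226 and 272 against 444 and 438. The part of such differences in the members' levels was not tested. In contrast, T cell markers summed to at most 0.23 TPM and B cell markers to at most 1.02 TPM. Of 4 erythroid markers 1 passed 1 TPM, Hba-a1, and of 4 stromal and endothelial markers 1 did, Pecam1, while Col1a1 stayed at or below 0.5 TPM. At 0 h the 10 most abundant genes held 22% and 17.8% of TPM in WT and 13.4% in both KO libraries. In bulk RNA a change in the mix of cells and a change per cell cannot be told apart.

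Before actinomycin D the members differed widely in level in WT cells. Eef1a1, which encodes eEF1A, led with 6727 and 7722 TPM, a mean of 7225 ± 704 (SD, n = 2). It was followed by Eef2 (1510 ± 192), Eif5a (1386 ± 87.6), the helicase gene Eif4a1 (1092 ± 69.6) and the eEF1B subunit gene Eef1g (658.9 ± 52.5). The ranges of Eef2 and Eif5a overlapped across libraries, but within each library Eef2 was higher (1375 against 1324 and 1646 against 1448 TPM). Their order was not tested. At the other end stood Eif5a2, the second eIF5A gene, at 1.02 and 0.83 TPM, and the 4E-binding protein gene Eif4ebp3 at 8.97 and 5.28 TPM.

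Complexes differed in level even before treatment. The 12 eIF3 genes other than Eif3j1 and Eif3j2 lay between 119 TPM (Eif3g) and 384 TPM (Eif3h) per WT library at 0 h. The 4 eIF2 genes lay between 52.96 and 134 TPM, and the 5 genes of its exchange factor eIF2B between 19.57 and 51.2 TPM. Every eIF2B gene was thus below every eIF2 gene in these libraries. The members together held 1.85% of WT TPM at 0 h, of which Eef1a1 alone was 39.1%.

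In KO cells at 0 h, 31 of 62 members were higher than in WT and 0 were lower, against 14.3% of all tested genes higher and 11.5% lower. No member was lower at an unadjusted p under 0.05 in limma either, and 38 were higher. The share of all tested genes at that unadjusted threshold is not given here. The members' median log2 change was 0.26, beside 0.06 for all tested genes. The count of higher members rests on few libraries: it was 15 without WT 0 h replicate 1 and 11 without either KO 0 h library. Median-ratio scaling left 30 higher and 0 lower, with medians of 0.24 for the members and 0.04 for all tested genes. The share held by the most abundant genes differed between the same groups (above), and its part in these counts was not tested.

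In the eEF1 group, 5 of 5 measured genes were higher in KO at 0 h. Eef1g measured 622 and 696 TPM in WT and 978 and 996 TPM in KO, so the libraries did not overlap (log2 0.58 ± 0.06, adjusted p = 2.39e-05). Eef1b2, the exchange subunit of eEF1B, was at 281 and 270 TPM in WT and at 403 and 407 TPM in KO (log2 0.55 ± 0.05, adjusted p = 1.44e-05). Eef1e1, whose protein is a scaffold of the aminoacyl-tRNA synthetase complex rather than an elongation factor proper, was at 57.7 and 53.4 against 82.5 and 88.6 TPM (log2 0.61 ± 0.08, adjusted p = 0.000202). Eef2k, the kinase that inhibits eEF2, was higher as well: 29.75 and 34.26 TPM in WT against 51.7 and 49.4 TPM in KO (log2 0.65 ± 0.12, adjusted p = 0.00156). Eef2 was at 1375 and 1646 against 1863 and 1849 TPM (log2 0.30 ± 0.07, adjusted p = 0.00969), a call lost without either KO 0 h library (adjusted p up to 0.0615).

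Among initiation factors at 0 h, 4 of 5 genes of the eIF1 and eIF1A group, 9 of 14 of eIF3 and 5 of 10 of eIF4F with eIF4B and eIF4H were higher in KO. Counts were 2 of 4 for eIF2, 2 of 5 for eIF2B and 1 of 3 for the late factors Eif5, Eif5b and Eif6. Neither the 3 eIF2 kinase genes among the members nor the 4 eIF4E regulator genes had a member past the threshold. Eif2ak2, an eIF2 kinase gene left out by the naming rule, was at 34.12 and 40.48 TPM in WT and 23.66 and 23.21 TPM in KO. It is not in the member counts, and no test of it is given. Eif2ak3, which encodes the endoplasmic reticulum kinase PERK, was at 19.18 and 21.32 TPM in WT and 18.08 and 18.43 TPM in KO. Eif1ax, the X-linked eIF1A gene, was at 197 and 218 TPM in WT and 284 and 285 TPM in KO (log2 0.45 ± 0.07, adjusted p = 0.000585).

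On the TPM scale more members passed the threshold between genotypes during actinomycin D. At 4 h, 42 members were higher in KO and 0 lower, against 24.9% and 13.7% of tested genes, with medians of 0.34 for the members and 0.11 for all genes. No member was lower at an unadjusted p under 0.05 in limma, and 48 were higher, again without the share of all tested genes. At 8 h, 45 were higher and 1 lower, against 37.3% and 12.1%, with medians of 0.68 and 0.20. The lower one was Eif1b, a close relative of Eif1, at 42.78 and 37.42 TPM in WT and 29.05 and 29.44 TPM in KO (log2 -0.44 ± 0.11, adjusted p = 0.00508). With median-ratio scaling 32 members stood higher and 0 lower at 4 h, close to the 30 higher at 0 h. At 8 h that scaling gave 39 higher and 3 lower. Its medians for the members and for all tested genes were 0.24 and 0.03 at 4 h, and 0.41 and 0 at 8 h.

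**Figure D1:**
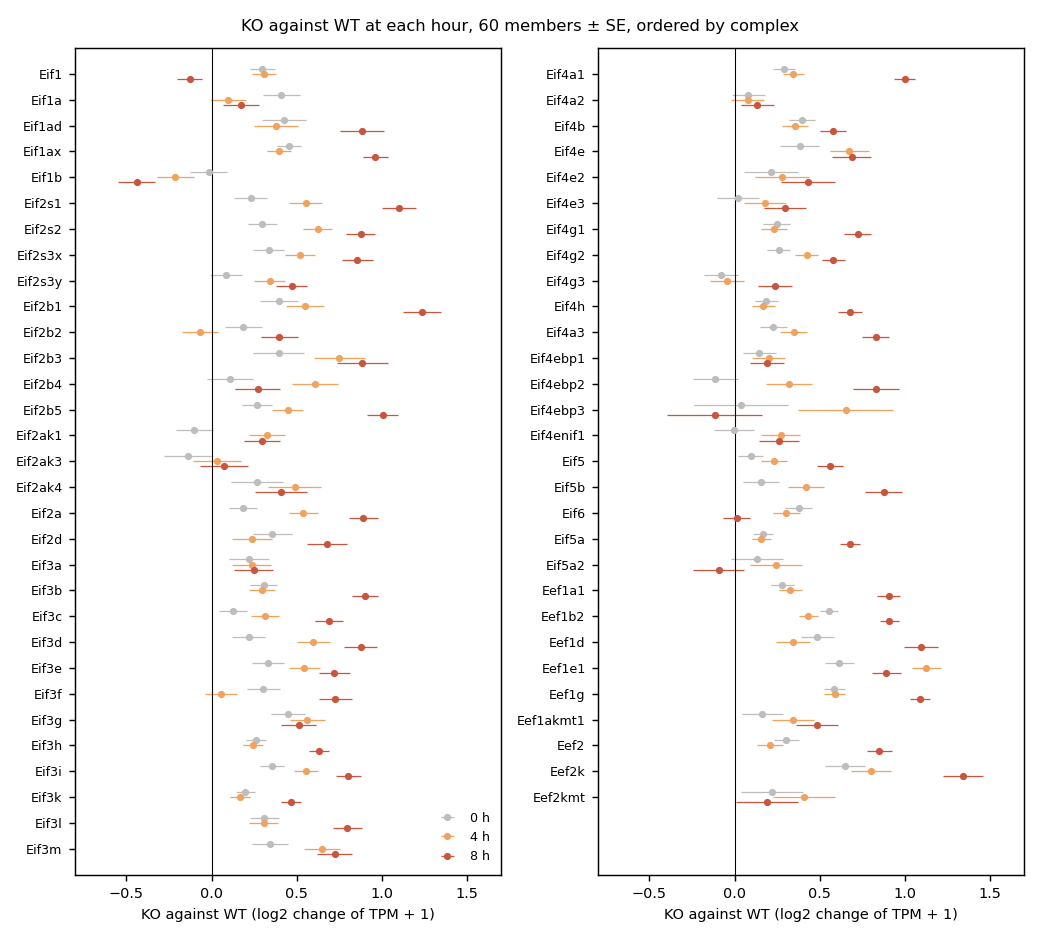
KO against WT at 0, 4 and 8 h of actinomycin D for 60 members (Eif3j1 and Eif3j2 are left out), as log2 change of TPM + 1; points are limma estimates and bars are SE, with members ordered by complex. Nearly all points lie right of 0, and the 8 h point of Eif1b (-0.44) lies left. Among the 8 h points those of Eef2k (1.34), Eif2b1 (1.23) and Eif2s1 (1.10) lie farthest right. The 4 h point of Eef1e1 (1.12) lies right of the 8 h point of Eif2s1.

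Leaving aside Eif3j1 and Eif3j2, whose sum is given further on, the largest differences at 8 h were in genes of eEF2 control, eIF2 and its exchange factor, followed by Eef1d and Eef1g, each with a log2 difference of 1.09. Eef2k was at 4.11 and 5.21 TPM in WT and 12.5 and 14.05 TPM in KO at 8 h (log2 1.34 ± 0.12, adjusted p = 1.92e-06). Eif2b1, the alpha subunit of eIF2B, was at 5.51 and 6.43 against 15.84 and 14.89 TPM (log2 1.23 ± 0.11, adjusted p = 2.53e-06). Eif2s1, the eIF2 subunit that the kinases phosphorylate, was at 10.04 and 11.73 against 25.7 and 23.1 TPM (log2 1.10 ± 0.10, adjusted p = 2.23e-06). The libraries of the genotypes did not overlap for any of these. All 4 eIF2 genes, 4 of 5 eIF2B genes, 11 of 14 eIF3 genes and all 5 eEF1 genes were higher in KO at 8 h. Of 4 eIF4E regulators only Eif4ebp2 was, at 18.09 and 14.74 TPM in WT and 26.85 and 33.15 TPM in KO (log2 0.83 ± 0.13, adjusted p = 0.000251).

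Levels during actinomycin D are shares of the mRNA that remains. Among all tested genes the median log2 change on the TPM scale was -0.81 at 4 h and -1.40 at 8 h in WT, and -0.70 and -1.16 in KO. A member whose TPM falls less than this has lost less than most genes. Median-ratio scaling, which sets the typical gene near 0, therefore turns many calls, and both counts are given.

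In WT, 8 members rose and 44 fell by 4 h, against 6.77% and 71% of tested genes. Leaving out WT 0 h replicate 1 gave 4 that rose, and leaving out replicate 2 gave 12. By 8 h, 2 rose and 55 fell, against 8.48% and 80.2%. In KO, 6 rose and 40 fell by 4 h, against 4.88% and 68%, and 7 rose and 48 fell by 8 h, against 9.54% and 75.4%. The number that rose in KO by 8 h was 3 without any 1 of the 0 h or 8 h KO libraries. With median-ratio scaling the higher and lower counts were 37 and 9, then 28 and 23 in WT, and 41 and 6, then 30 and 20 in KO. Under it the members' median log2 change was 0.32 at 4 h and 0.06 at 8 h in WT, and 0.45 and 0.03 in KO. For all tested genes the medians were 0.015 and -0.049, and 0.055 and -0.018, in the same order. The 4 h and 8 h comparisons of a genotype share its 0 h libraries. The TPM-scale counts by complex that follow stand beside the shares of all genes above, so that most or all genes of a small group falling is near the background. Those shares do not apply to median-ratio counts, for which no share of all genes is given here.

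The members' summed TPM followed different courses. In WT it was 17424 and 19556 TPM before treatment, 18604 and 18274 TPM after 4 h, and 12343 and 13298 TPM after 8 h. In KO it stayed between 22305 and 23019 in all 6 libraries. The KO sum rested on Eef1a1, whose share of it went from 38.9% at 0 h to 50.4% at 8 h. Without Eef1a1 the mean sums were 11270, 10410 and 6737 TPM in WT and 13770, 12920 and 11150 TPM in KO at 0, 4 and 8 h.

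**Figure D2:**
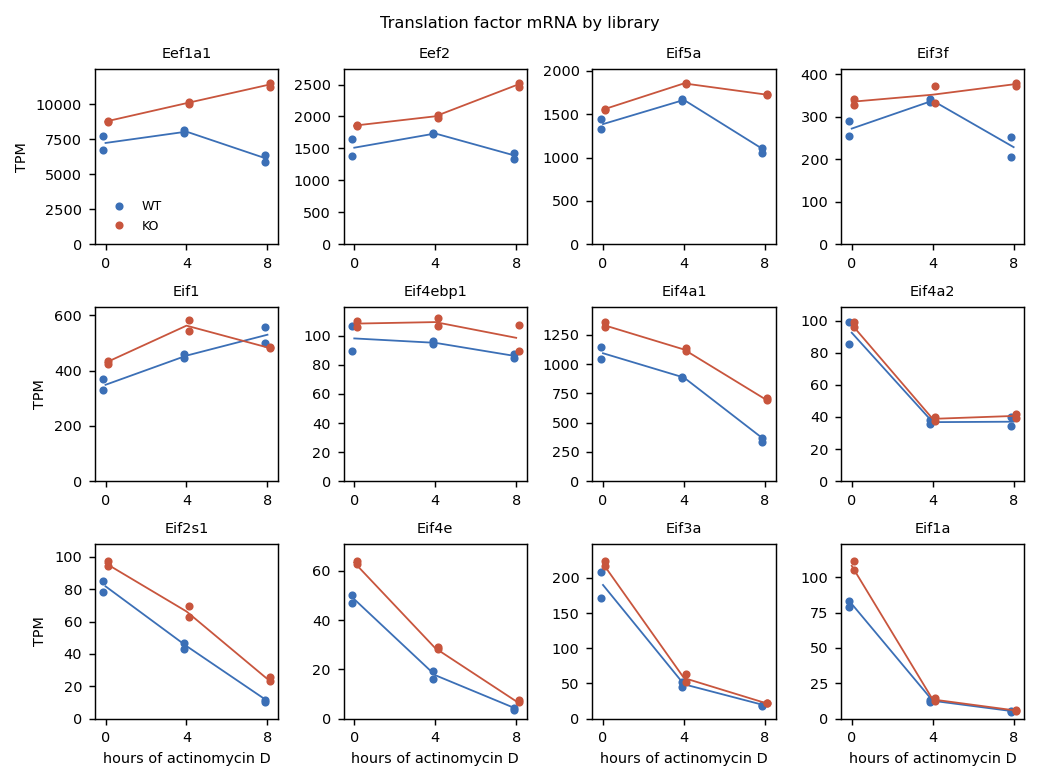
TPM of 12 members by hours of actinomycin D; each point is a library, lines join the means of the 2 libraries of a group, blue is WT and red is KO, and every vertical axis starts at 0. Eef1a1 and Eef2 end above their 0 h level in KO, Eif1 is the only gene shown whose WT mean is highest at 8 h, Eif4a2 levels off after 4 h, and Eif1a and Eif3a lose most of their TPM by 4 h.

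Eef1a1, Eef2 and Eef1b2 kept their share in WT to 84.2% or more at 8 h and gained in KO. Eef1a1 was at 8157 and 7910 TPM at 4 h and 5837 and 6329 TPM at 8 h in WT, the latter 84.2% of its 0 h mean (log2 -0.25 ± 0.07, adjusted p = 0.0041). In KO it climbed from 8813 and 8694 TPM at 0 h to 9973 and 10164 TPM at 4 h and 11495 and 11234 TPM at 8 h, 130% of its 0 h mean (log2 0.38 ± 0.07, adjusted p = 0.000182). KO libraries lay above WT libraries at every hour, without overlap. Eef2 went to 1730 and 1736, then 1337 and 1425 TPM in WT, and to 2025 and 1979, then 2524 and 2455 TPM in KO, where it rose (log2 0.42 ± 0.07, adjusted p = 0.00015). Eef1g, with 488 and 506 TPM in WT and 1058 TPM in both KO libraries at 8 h, kept 75.4% in WT and 107% in KO, where it had no call. Eef1b2 rose in both: from the 0 h levels above to 321 and 320 TPM in WT (log2 0.22 ± 0.05, adjusted p = 0.00197) and 602 and 604 TPM in KO (log2 0.57 ± 0.05, adjusted p = 4.61e-07) at 8 h.

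Not every gene with an eEF symbol was slow. Eef1d, another eEF1B subunit, went from 81.3 and 90.9 TPM through 83.1 and 83.2 to 31.11 and 34.09 TPM in WT, and from 123 and 119 through 102 and 110 to 63.7 and 78.3 TPM in KO. It thus kept its WT level until 4 h and lost it after. Eef1e1 was at 7.31 and 7.54 TPM in WT at 8 h, 13.4% of its 0 h mean, and 14.8 and 14.42 TPM in KO, 17.1%. Eef2k fell to 14.6% in WT (log2 -2.55 ± 0.12, adjusted p = 5.42e-10) and to 26.3% in KO (log2 -1.85 ± 0.12, adjusted p = 1.1e-08). By count, 1 of 5 eEF1 genes rose and 4 fell in WT by 8 h, and 2 rose and 2 fell in KO. With median-ratio scaling these counts were 4 higher and 1 lower in both genotypes. Eef1akmt1, a lysine methyltransferase of eEF1A, was at 34.78 and 38.89 TPM at 0 h and 13.64 and 17.62 TPM at 8 h in WT, and fell in both genotypes by 8 h, whereas median-ratio scaling called it higher in WT (0.45) and KO (0.53).

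Eif5a behaved like the abundant elongation factors. It was at 1324 and 1448 TPM at 0 h, 1680 and 1651 TPM at 4 h, and 1051 and 1114 TPM at 8 h in WT (log2 -0.36 ± 0.06 at 8 h, adjusted p = 6.27e-05). In KO it was at 1547 and 1560, 1864 and 1849, and 1735 and 1722 TPM, so that it rose by 4 h in both genotypes. At 8 h in KO it was above its start (log2 0.15 ± 0.06, adjusted p = 0.0234), a call lost in limma without the trend and without any 1 of the 0 h or 8 h KO libraries (adjusted p up to 0.115). With median-ratio scaling it was above its start in WT too (1.36). Eif5a2 stayed between 0.67 and 1.25 TPM in all libraries, with no call on the TPM scale, while median-ratio scaling called it higher at 8 h in WT (0.90) and KO (0.53).

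Eif1 and Eif1a, which encode factors that select the start codon, went in opposite directions. Eif1, the gatekeeper of start codon choice, was at 369 and 329 TPM at 0 h, 447 and 461 TPM at 4 h, and 502 and 558 TPM at 8 h in WT (log2 0.60 ± 0.07, adjusted p = 4.4e-06). In KO it peaked at 583 and 542 TPM at 4 h between 422 and 435 TPM at 0 h and 485 and 483 TPM at 8 h. Its partner Eif1a fell from 79.03 and 83.4 TPM to 11.8 and 13.37 TPM at 4 h and 5.4 and 4.81 TPM at 8 h in WT, 6.28% of its start (log2 -3.75 ± 0.11, adjusted p = 2.87e-11). The KO course was the same in shape, with 111 and 105, 12.54 and 14.51, and 6.17 and 5.59 TPM (log2 -3.99 ± 0.11, adjusted p = 4.98e-11). Eif1a stayed lower under median-ratio scaling too, by -2.16 in WT and -2.62 in KO at 8 h. The related Eif1ax was more abundant in WT at 0 h, with a mean of 207.6 TPM against 81.23 TPM for Eif1a. At 4 h Eif1ax was at 112% of its start in WT and 107% in KO. It kept 54.5% of its WT level and 77.9% of its KO level at 8 h.

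All 4 eIF2 genes and all 5 eIF2B genes fell by 8 h in both genotypes on the TPM scale. Summed eIF2 TPM had means of 387.4, 253.7 and 100.6 in WT and 466.1, 369.1 and 181.6 in KO at 0, 4 and 8 h. Eif2s1 went from 78.5 and 85.1 TPM to 46.6 and 43.15 and then to 10.04 and 11.73 TPM in WT (log2 -2.80 ± 0.10 at 8 h, adjusted p = 8.82e-11). In KO it went from 97.6 and 94.5 TPM to 62.8 and 69.8 and then to 25.7 and 23.1 TPM (log2 -1.93 ± 0.10, adjusted p = 1.69e-09). Eif2s3x and Eif2s3y, the X-linked and Y-linked copies of the gamma subunit, kept 38% and 31.8% in WT, and 55.2% and 42.1% in KO. Within eIF2B the retained share at 8 h ran from 11.8% (Eif2b4) to 37.2% (Eif2b5) in WT and from 14.1% to 63.8% for the same genes in KO. After median-ratio scaling the WT counts at 8 h were 1 higher and 2 lower for eIF2, and 1 higher and 3 lower for eIF2B.

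The 3 eIF2 kinase genes among the members, which encode sensors of stress, all lost most of their share. Eif2ak2, left out by the naming rule, was at 13.07 and 15.42 TPM in WT and 11.92 and 9.66 TPM in KO at 8 h. Eif2ak3 went from 19.18 and 21.32 TPM to 3.01 and 2.75 TPM at 4 h, then to 1.04 and 1.43 TPM by 8 h in WT (log2 -3.25 ± 0.14, adjusted p = 3.15e-10). In KO it was at 3.24 and 2.7 TPM at 4 h and 1.37 and 1.31 TPM at 8 h, overlapping WT at both hours. Eif2ak1, the heme-regulated kinase, kept 17.4% in WT and 23.5% in KO at 8 h, and Eif2ak4, the amino acid sensor GCN2, kept 29% and 33.6%. All 3 fell in both genotypes. Median-ratio scaling left 2 of them lower in each genotype at 8 h.

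Genes of eIF3 divided by subunit. On the TPM scale Eif3f, Eif3h and Eif3k stayed near their starting levels in WT at 8 h, at 84%, 85.7% and 91.9%, and lay above them in KO, at 112%, 111% and 111%. Eif3f, for example, was at 255 and 289 TPM at 0 h, 335 and 340 TPM at 4 h, and 204 and 252 TPM at 8 h in WT, with 327 and 342, 371 and 332, and 379 and 373 TPM in KO. By contrast Eif3a, the largest scaffold subunit, dropped from 171 and 209 TPM to 51.95 and 45.6 TPM at 4 h and 17.49 and 19.94 TPM at 8 h in WT (log2 -3.27 ± 0.12, adjusted p = 9.09e-11). In KO it dropped from 224 and 216 TPM to 52.6 and 62.8 and to 22.6 and 22.06 TPM (log2 -3.25 ± 0.12, adjusted p = 1.65e-10), and in each hour its KO libraries lay just above its WT libraries, without a call between genotypes. Eif3d, which can bind the cap of some mRNAs, kept 14.4% in WT and 23.3% in KO. Subunits of a single complex thus retained from 9.85% to 91.9% of their 0 h TPM in WT. By count 0 of 14 eIF3 genes rose and 12 fell in WT, and 2 rose and 9 fell in KO at 8 h. With median-ratio scaling 7 were higher and 5 lower in WT, and 7 higher and 4 lower in KO.

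Every one of the 10 genes of eIF4F with eIF4B and eIF4H fell by 8 h in both genotypes on the TPM scale, whereas with median-ratio scaling WT had 5 higher and 1 lower, and KO 7 higher and 1 lower. Eif4e, the cap-binding protein, fell from 46.8 and 50.1 TPM to 19.1 and 16.1 TPM at 4 h and to 3.58 and 4.39 TPM at 8 h in WT (log2 -3.31 ± 0.11, adjusted p = 7.7e-11). In KO it fell from 63.9 and 62.8 TPM to 29.13 and 28.04 and to 7.34 and 6.67 TPM (log2 -3.01 ± 0.11, adjusted p = 2.43e-10). Its fall held under median-ratio scaling (-1.76 and -1.64). The scaffold genes were slower: Eif4g1 was at 182 and 218 TPM at 0 h and 115 and 116 TPM at 8 h in WT, and at 236 and 237 against 194 and 189 TPM in KO.

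Eif4a1 and Eif4a2 encode closely related helicases and followed different courses. Eif4a1 went from 1043 and 1141 TPM through 893 and 877 to 336 and 367 TPM in WT (log2 -1.63 ± 0.06, adjusted p = 1.48e-10), and from 1355 and 1314 through 1134 and 1115 to 711 and 693 TPM in KO (log2 -0.93 ± 0.06, adjusted p = 2e-08). Eif4a2 was at 85.5 and 99.3 TPM at 0 h, 35.5 and 38.1 TPM at 4 h, and 34.28 and 39.86 TPM at 8 h in WT, with 96.1 and 98.9, 40.03 and 37.66, and 39.18 and 42.1 TPM in KO. On the TPM scale it thus dropped early and then levelled, and WT and KO libraries overlapped at every hour. Their coding sequences are 77.8% identical in the reference transcripts. Eif4a3, a helicase of the exon junction complex rather than of initiation, went from 173 and 172 TPM to 24.2 and 23.3 TPM in WT at 8 h (log2 -2.81 ± 0.08, adjusted p = 2.52e-11).

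The 3 genes of 4E-binding proteins differed from each other. Eif4ebp1 was the flattest: 89.6 and 107 TPM at 0 h, 96.1 and 94.1 TPM at 4 h, and 87.3 and 84.5 TPM at 8 h in WT, and 110 and 106, 112 and 107, and 107 and 89.6 TPM in KO. None of its comparisons passed the threshold on the TPM scale, while median-ratio scaling put it higher at 8 h in both genotypes, by 1.51 and 1.29. Eif4ebp2 went from 79.9 and 102 TPM to 39.8 and 44.3 and to 18.09 and 14.74 TPM in WT (log2 -2.39 ± 0.13, adjusted p = 2.88e-09). In KO it went from 84.9 and 81.8 TPM to 54.3 and 50.9 and to 26.85 and 33.15 TPM (log2 -1.45 ± 0.13, adjusted p = 3.97e-07), a fall that median-ratio scaling reduced to -0.03 with no call. Eif4ebp3 was at or below 2.4 TPM in all libraries after 0 h. Eif4enif1, which carries eIF4E into the nucleus, kept 15.1% in WT and 18.8% in KO at 8 h.

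All 3 genes of subunit joining were lower by 8 h in both genotypes, where most tested genes were (80.2% in WT and 75.4% in KO); median-ratio scaling gave 1 higher and 2 lower in WT, and 1 and 1 in KO. Eif5b, the GTPase that joins the subunits, kept 21.3% in WT and 37% in KO. Eif6, which keeps the large subunit from joining too early, went the other way, with 25.4% in WT and 19.6% in KO. It was at 102 and 101 TPM in WT and 124 and 141 TPM in KO at 0 h, and at 26.4 and 25.08 against 25.5 and 26.5 TPM at 8 h, where the genotypes overlapped.

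**Figure D3:**
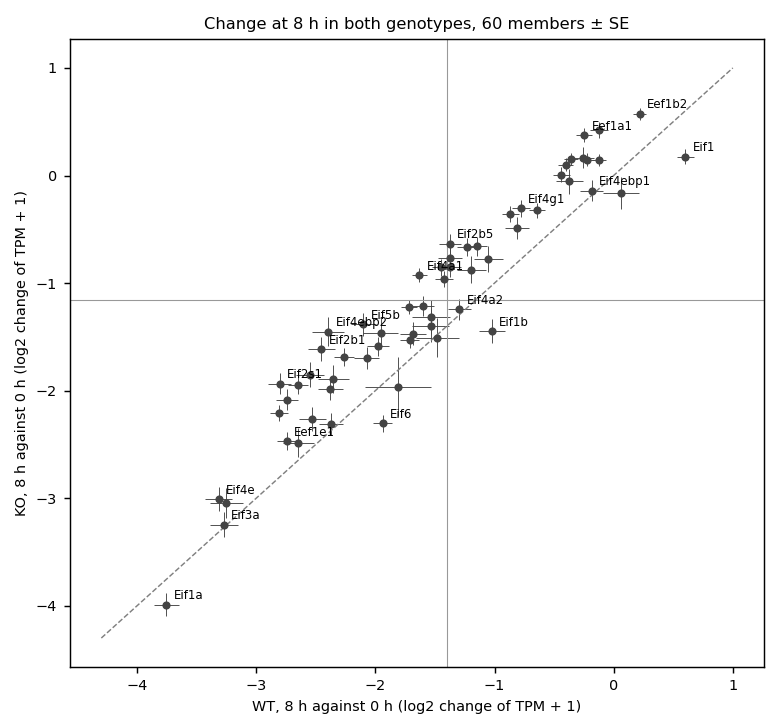
Log2 change of TPM + 1 from 0 to 8 h in WT (horizontal) against KO (vertical) for 60 members (without Eif3j1 and Eif3j2), with SE bars; the dashed line marks equal change and the grey lines mark the medians of all tested genes (-1.40 and -1.16). Most points lie above the dashed line; Eif1, Eif1b and Eif6 lie below it, and Eif4a2 and Eif3a lie near it.

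Whether the 8 h change differed between genotypes was tested directly. It was less negative or more positive in KO for 30 members and the reverse for 2, against 17.3% and 2.63% of tested genes, with medians of 0.39 and 0.18. Median-ratio scaling left 17 and 3, with medians of 0.13 and -0.02. At 4 h the same test called 0 members either way, against 0.0538% and 0.296% of tested genes. At an unadjusted p under 0.05 in limma, for which no share of all tested genes is given, 8 members were higher and 0 lower at 4 h. The members' median was 0.12 beside 0.06 for all tested genes. Whether the changes over the first 4 h were equal cannot be read from this.

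On the TPM scale the members with a smaller loss or larger gain in KO at 8 h came from nearly all groups. Among them were 4 of 5 eEF1 genes, 3 of 4 eIF2 genes, 8 of 14 eIF3 genes and 2 of 5 eIF2B genes. So were 4 of 10 genes of eIF4F with eIF4B and eIF4H. With median-ratio scaling these counts were 2, 3, 3, 2 and 1 in the same order. Eif4a1 had the smallest p (difference 0.71 ± 0.09, adjusted p = 0.000568), with 32.2% retained in WT and 52.6% in KO. Eef1a1 differed by 0.62 ± 0.10 (adjusted p = 0.00138) and Eif2s1 by 0.87 ± 0.14 (adjusted p = 0.00163). The reverse held for Eif1 (-0.43 ± 0.10, adjusted p = 0.013) and Eif6 (-0.36 ± 0.11, adjusted p = 0.0394). The Eif1 call was lost without KO 0 h replicate 2 and without the trend, with adjusted p from 0.00368 to 0.0606 over the alternatives. The Eif6 call was lost in 11 of 20 alternatives, over which its adjusted p ranged from 0.0129 to 0.2. For Eif1a, Eif3a and Eif4a2 the estimates were -0.24 ± 0.15, 0.03 ± 0.16 and 0.05 with no call.

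On the log2 scale most members had a lower change late than early. In WT the log2 change between 4 and 8 h was below that between 0 and 4 h for 48 of 62 (77.4%), against 34.5% of all tested genes. This count includes Eif1, which gained in both intervals. Their median log2 change was -0.65 early and -0.998 late, where all genes had -0.81 and -0.43. In KO the count was 43 (69.4%), against 31.1%, with medians of -0.41 and -0.64 beside -0.70 and -0.28. These counts are descriptions: both intervals share the 4 h libraries, and the difference between the intervals was not tested.

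**Figure D4:**
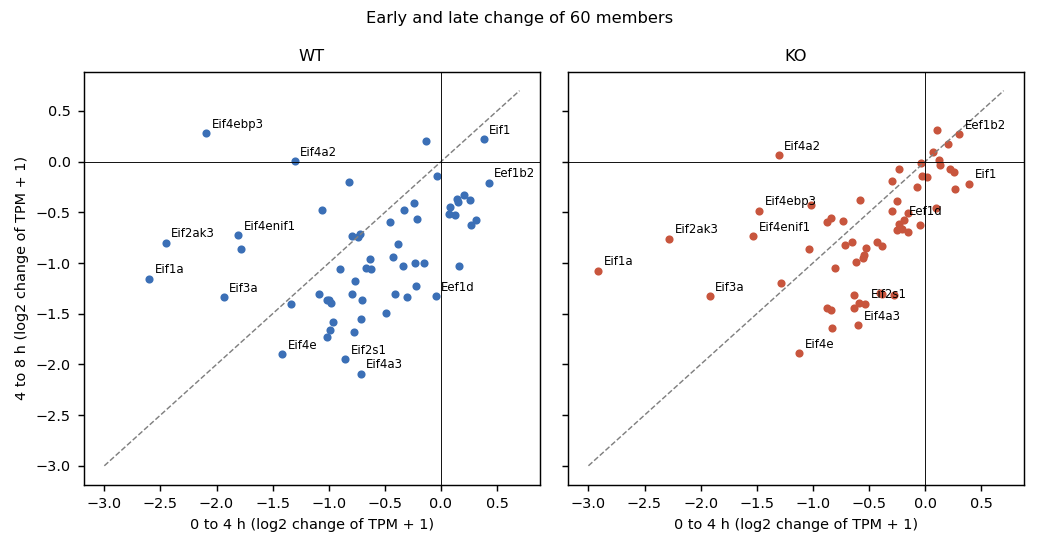
Log2 change of TPM + 1 between 0 and 4 h (horizontal) and between 4 and 8 h (vertical) for 60 members (without Eif3j1 and Eif3j2) in WT and in KO; the dashed line marks equal change in both intervals and points below it had the lower log2 change late. Most points lie below the dashed line; Eif1a, Eif2ak3, Eif3a, Eif4enif1, Eif4a2 and Eif4ebp3 lie above it in both genotypes.

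Eif2s1 and Eif4a3 are examples of late loss, with -0.85 and then -1.95, and -0.72 and then -2.09, in WT. The exceptions were of several kinds. Eif5 (-0.72, then -0.71) and Eef2kmt (-0.74, then -0.74) lost about as much in both intervals. Eif1a (-2.60, then -1.15), Eif2ak3 (-2.45, then -0.80) and Eif3a (-1.94, then -1.34) lost most early and went on falling. Eif4a2 had -1.30 early and 0.01 late, while the median of all tested genes fell by 0.43 late.

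Eif3j1 and Eif3j2, which encode the eIF3 subunit that binds near the decoding site, cannot be read one by one. Their coding sequences are 99.2% identical, and their values exchanged between libraries of a group in WT at 0 h and in KO. In WT at 0 h, Eif3j1 was at 0.06 and 97.2 TPM, where Eif3j2 was at 91.4 and 9.29 TPM. In WT at 4 and 8 h the libraries of each gene lay close together. The sum was steady, at 91.46 and 106.5, 56.9 and 51.4, and 12.75 and 15.61 TPM in WT, and at 124 and 119, 73.8 and 80.8, and 34.9 and 33.1 TPM in KO. It fell by 8 h in WT (log2 -2.72, adjusted p = 1.6e-10) and in KO (-1.81, adjusted p = 5.76e-09), and the fall was smaller in KO (0.91 ± 0.15, adjusted p = 0.00202). The single-gene calls counted above for Eif3j2 (lower by 8 h in both genotypes) should be read with this limit.

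**Figure D5:**
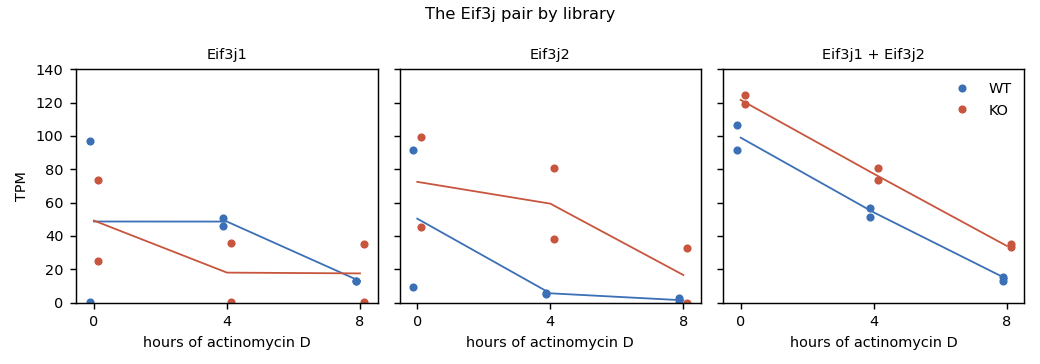
TPM of Eif3j1, of Eif3j2 and of their sum by hours of actinomycin D; each point is a library, lines join group means, blue is WT and red is KO. For the single genes the libraries of a group lie far apart in WT at 0 h and in KO at every hour, but close together in WT at 4 and 8 h. For the sum they lie close together in every group, and KO lies above WT at every hour.

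The annotated start of the transcript is shown for members that kept much or little of their share, since the TOP class is defined there. Each line gives 5 bases before and 25 from the annotated RefSeq start on GRCm38.p6, on the transcribed strand, with the longest run of C and T in capitals. Windows lie at chr9:78481700-78481729 (minus strand) for Eef1a1, chr10:81176626-81176655 (plus) for Eef2, chr7:108934410-108934439 (plus) for Eif3f, chrX:94212627-94212656 (minus) for Eif2s3x, chr19:60790669-60790698 (minus) for Eif3a, chr6:70844510-70844539 (plus) for Eif2ak3 and chr16:23107463-23107492 (plus) for Eif4a2. Each runs from just before the annotated start into the first bases of the annotated transcript. Windows were taken for 9 members, not all printed here, and 7 of the 9 lay at the outer end of the gene record. The runs of Eef1a1, Eif3f and Eif2s3x cross the annotated start, and those of Eef2, Eif3a and Eif2ak3 begin after it. That of Eif4a2 lies before it, so a run here need not be a TOP tract. Whether any of these runs is one, that of Eef1a1 included, was not tested.
Eef1a1: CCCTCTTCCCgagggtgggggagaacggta
Eef2: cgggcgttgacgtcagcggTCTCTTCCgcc
Eif3f: gCTCTCTCTCTTTCTCggcaagatggcttc
Eif2s3x: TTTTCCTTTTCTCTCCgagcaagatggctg
Eif3a: gcggcggcgCTgccgccgcgagggaatcac
Eif2ak3: acgcacggaaCCCTCgctcaatgggcgatg
Eif4a2: CCCgtaggagcagggcggccgaggagcgcg

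In these windows Eef1a1, Eef2 and Eif3f, which kept 84.2%, 91.5% and 84% of their WT level at 8 h, had runs of 10, 8 and 15 bases. Eif3a, Eif2ak3 and Eif4a2, which kept 9.85%, 6.1% and 40.1%, had runs of 2, 5 and 3. Eif2s3x, with a run of 16, kept 38%. The wider search, 20 bases before to 30 from a start, held further members in which run and kept share did not go together. Eif2b5 had a run of 21 and kept 37.2%, Eif3m had 11 and kept 23.4%, and Eif4e had 10 and kept 8.23%. Eif1, Eef1b2 and Eif5a had runs of 2, 4 and 3 and stood at 152%, 116% and 78.1%. Of 62 members 48 had a start in the table, and 13 of these (27.1%) had a run of at least 8 C or T in that search, beside 21.7% of tested genes. A match is a description of these letters, and annotated starts can differ from those used in these cells.

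The 9 members known as TOP mRNAs from earlier knowledge were Eef1a1, Eef1b2, Eef1d, Eef1g, Eef2, Eif3e, Eif3f, Eif3h and Eif4b. All 9 were higher in KO at 0 h and at 8 h, and 8 were at 4 h. With median-ratio scaling 9, 6 and 9 were higher in KO at 0, 4 and 8 h. Of tested genes 14.3%, 24.9% and 37.3% were higher in KO at 0, 4 and 8 h. The medians of the TOP members were 0.33 at 0 h and 0.85 at 8 h, beside 0.06 and 0.20 for all tested genes. In WT, 1 rose and 7 fell by 8 h, with a median of -0.26, against 8.48% and 80.2% of tested genes. In KO 4 rose and 3 fell, with a median of 0.15, against 9.54% and 75.4%. Under median-ratio scaling 7 were higher and 1 lower in WT, and 7 higher and 0 lower in KO. Eif3e, Eif4b and Eef1d retained least, at 25.1%, 30.1% and 37.9% of their WT level at 8 h. Of the 77 cytosolic ribosomal protein genes, the main TOP class, 71, 63 and 62 were higher in KO at 0, 4 and 8 h. Lower were 1, 1 and 5. With median-ratio scaling 60, 37 and 42 of these ribosomal protein genes were higher, and 1, 1 and 8 lower. Their 8 h change on the TPM scale had medians of 0.33 in WT and 0.40 in KO. The 18 cytosolic aminoacyl-tRNA synthetase genes, the enzymes that supply eEF1A, had -1.48 and -0.99, beside -1.53 and -1.35 for all members.

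Length and motif content had weak rank correlations with the 8 h change inside the group. Over 62 members, Spearman's rank correlation of the WT 8 h change was -0.14 with transcript length, -0.10 with the length of the 3′ untranslated region, -0.06 with the number of ATTTA motifs in it and 0.16 with GC at the third codon position. Without Eif3j1 and Eif3j2 these were -0.19, -0.13, -0.07 and 0.16, and over 10529 tested genes -0.33, -0.22, -0.22 and 0.23. Genes are not independent replicates, so no p is given. An ATTTA motif occurred in the 3′ untranslated region of 37 members (59.7%), beside 64.5% of tested genes. The transcript with the longest coding sequence stood for each gene, and for Eif4a2 and Eif4g3 it held no 3′ untranslated region. Median transcript length was 2446.5 nt for the members and 2869 nt for tested genes.

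Other genes of the pathway were followed from lists by function, beside 37.3% of tested genes higher in KO at 8 h and 80.2% lower in WT by 8 h. Of 8 measured release and recycling genes, 4 were higher in KO at 0 h, 7 at 4 h and 4 at 8 h, and 7 fell in WT and 8 in KO by 8 h. Gspt1, the release factor eRF3a, had a log2 difference of 0.86 ± 0.09 between KO and WT at 8 h (adjusted p = 7.9e-06). Of 5 genes around the poly(A)-binding proteins, 4 were higher in KO at 8 h, including Pabpc1 (0.97) and Pabpc4 (1.18). Of 8 genes of mTOR and S6 kinase signalling, 0 were higher in KO at 0 h, none was called at an unadjusted p under 0.05 in limma, 2 were higher and 1 lower at 4 h, 1 was higher at 8 h, and all 8 fell in WT by 8 h. Of 9 genes that modify eIF5A and eEF2, 5 were higher in KO at 8 h, among them Dhps (0.71) and Dohh (0.87), which make the hypusine of eIF5A. Of 11 measured initiation helpers, 6 were higher and 1 lower in KO at 8 h, and Ppp1r15a, which directs the dephosphorylation of eIF2, was the 1 that rose in WT by 8 h (0.35). It fell in KO by 8 h (-0.26, adjusted p = 0.0395), and its changes differed between genotypes at 4 h (-0.96, adjusted p = 0.0225) and 8 h (-0.61, adjusted p = 0.0159). Of 9 measured mitochondrial translation factors, 4 were higher in KO at 8 h, such as Tufm (1.09), the mitochondrial counterpart of eEF1A. After median-ratio scaling the 8 h counts in WT, higher and lower, were 1 and 5 for release, 4 and 1 for poly(A)-binding, 1 and 3 for mTOR, 4 and 4 for modification, 2 and 8 for helpers and 2 and 4 for mitochondrial factors.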

How the data were processed

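RNA from 12 libraries was measured by the authors as TPM per gene, a share of each library corrected for transcript length. The labels' protocols name TRIzol for extraction and a kit for stranded mRNA libraries. Per the submitters' processing notes, STAR, RSEM and mm10 were used; versions, annotation and strand options were not given in the sources used here. The deposited TPM hold no read counts, so depth is unknown, no counting interval can be given, and changes are relative to other transcripts.

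Genes that reached 1 TPM in 2 or more libraries (11152) were tested on log2(TPM + 1), which understates changes of low genes, with limma 3.58.1 in R 4.3.3. A single model of all 12 libraries fitted each group's mean, leaving 6 degrees of freedom, with a trended empirical Bayes spread. There were 9 comparisons. Adjusted p are Benjamini-Hochberg values over all tested genes with a threshold of 0.05, and errors are SE unless given as SD. On simulated data with 11152 genes for WT 8 h against 0 h, 200 genes were changed. Of these, 86% of log2 changes of 1 and 99% of 2 were recovered, with 2 false calls. In the data 80.2% of tested genes fell in that comparison, a setting the simulation did not cover. Replicates of a group correlated with r of 0.991 to 0.994 across genes, other pairs with at most 0.974.

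Members and lists were chosen with earlier results of these data known. Named members were up to 6 each way per comparison by size (mean of at least 5 TPM, no overlap), and subunits of the complexes and paralogs. Transcript features came from GENCODE M21 (GRCm38) by symbol, and starts from RefSeq on GRCm38.p6. Alternatives were median-ratio scaling, pseudocounts of 0.1 and 0.5, no trend, no filter, a filter on a mean under 5 TPM, the replicate number as a block, each library left out and, added after seeing the data, the sum of Eif3j1 and Eif3j2.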

Additional observations from a re-analysis of the deposited data

Results flagged for a closer look

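The difference between KO and WT in the 8 h change, tested in limma, picked out 15 named members. It was largest for Eif4ebp2 (0.94 ± 0.19 SE, adjusted p = 0.00557), Eif2s1 (0.87 ± 0.14, adjusted p = 0.00163) and Eif2b1 (0.84 ± 0.16, adjusted p = 0.00384), all of which fell less in KO. Eif2b5 (0.74), Eif5b (0.72), Eif4a1 (0.71), Eif3d (0.66) and Eef1d (0.61) also fell less in KO. Eef1a1 (0.62), Eef2 (0.55), Eif5a (0.51), Eef1g (0.50) and Eef1b2 (0.35) ended higher relative to their start in KO. The reverse sign was found for Eif1 (-0.43) and Eif6 (-0.36). Some calls depended on the setting: over 20 alternatives the call of Eif6 was lost in 11, those of Eif1 and Eef1b2 in 2 each (adjusted p from 0.00368 to 0.0606, and from 0.00502 to 0.609) and that of Eef1d in 1.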

How the results depend on the processing

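Median-ratio scaling changed most. Under it the counts of members that were higher and lower became 37 and 9 in WT at 4 h, 28 and 23 in WT at 8 h, 41 and 6 in KO at 4 h, and 30 and 20 in KO at 8 h. It also gave 32 members higher in KO than WT at 4 h, 3 lower in KO than WT at 8 h, and 17 with a higher 8 h change in KO. No share of all tested genes is given beside these median-ratio counts. With 1 library left out, the members higher in KO at 0 h ranged from 11 to 34, those that rose in WT by 4 h from 4 to 12, those that rose in KO by 8 h from 3 to 8, and those with a lower 8 h change in KO from 0 to 3. Without the trend, the counts were 15 higher in KO at 0 h, 5 that rose in WT by 4 h, 3 that rose in KO by 8 h, and 0 with a lower 8 h change in KO. With the replicate block that last count was 1, while 30 members were higher in KO at 0 h, 44 at 8 h and 30 had a higher 8 h change. Replicate numbers did not pair the libraries: over 15 pairs of groups, the deviations correlated between -0.083 and 0.051.

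Signs turned under median-ratio scaling. In WT at 8 h the log2 changes became 1.47 for Eef1a1, 1.36 for Eif5a, 0.081 for Eif4a1, 0.39 for Eif4a2, 1.45 for Eif3f, 1.49 for Eif3h, 0.93 for Eif4g1 and 0.28 for Eif2b5. In KO at 8 h they became 0.52 for Eif4a1, 0.18 for Eif4a2, 1.14 for Eif4g1 and 0.78 for Eif2b5. This follows from the scaling, which sets the typical gene near 0. Of 2058 checks of 103 named results, 1979 kept direction and call, 67 lost the call and 12 turned. With no counts, low members such as Eif5a2, Eif4ebp3 and Eif2ak3 at 8 h carry a precision that cannot be stated.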
